A study of Caenorhabditis elegans with 8 samples.

Results

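The genes of the Caenorhabditis elegans X chromosome were taken as every entry of the poly(A) expression table whose locus lies on chromosome X of the ce10 build, and the same gene identifiers were then found in the table of rRNA-depleted RNA. This gave 5646 of the 44968 entries of the poly(A) table and 4106 of the 25640 genes of the rRNA-depleted table. They were set against 39308 autosomal entries in the poly(A) table and 21233 autosomal genes in the rRNA-depleted table. Of the X entries, 2626 were protein-coding genes, 2301 were non-coding RNA genes, 274 were tRNA genes, 166 were pseudogenes, 162 were piRNA genes and 3 were snoRNA genes. The X alone held nearly as many tRNA entries as the 5 autosomes together, which had 335, but each autosome had 24 to 31 snoRNA genes.

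The study measured RNA from young adult worms grown as synchronized liquid cultures, comparing animals of genotype Wt with animals labelled RNAi CstF50. The gene targeted is cpf-1, which encodes the worm CstF50 protein, part of the cleavage stimulation factor that acts where messenger RNA is cut and polyadenylated; the header of the poly(A) table names the groups as N2 worms with the empty RNAi vector L4440 and worms on cpf-1 RNAi. Each genotype had 2 libraries of poly(A)-selected RNA and 2 of rRNA-depleted RNA, 8 libraries in all, and nothing in the labels says that the libraries of a group came from separate cultures, so the p-values measure only the spread between libraries, which may be technical. The rRNA-depleted table calls its groups A and B and does not say which is RNAi, so they are called condition A and condition B here, and no direction of that table is tied to the RNAi label. The targeted gene was not lower in the libraries labelled CstF50 RNAi: its level was 50.5 FPKM with the empty vector and 67.8 with cpf-1 RNAi (q = 0.613 in the authors' deposited table). In the rRNA-depleted libraries cpf-1 stood at 1651 and 1738 normalized counts in condition A and at 6976 and 10350 in condition B. Every direction below is therefore that of a label and not of a measured loss of cpf-1.

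In C. elegans, hermaphrodites carry a pair of X chromosomes and males carry 1, and in hermaphrodite body cells a dosage compensation complex related to condensin binds the X chromosomes and lowers their transcription. In the germline, where that complex does not act in this way, the X is largely kept silent by repressive chromatin, and genes needed in sperm and oocytes lie mostly on autosomes. Genes of muscle, neurons and other body tissues are common on the X. Of the lists used here, 0 of 38 oocyte and early embryo genes and 0 of 92 sperm genes lay on the X.

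The median level of X genes was lower than that of all autosomal genes together in both tables. FPKM, fragments per kilobase of transcript scaled to library depth, corrects for transcript length and so allows levels to be compared between genes. Among genes with at least 5 FPKM in the higher group, the median of 1107 X genes in wild type was 16.3 FPKM, with quartiles of 8.05 and 46.4, against 29.05 for 8129 autosomal genes. The 5 autosomes ran from 24.5 to 33.3 FPKM, all above the X. In the group labelled RNAi the X median was 9.41 FPKM, and the autosomal median was 17.4, with a range of 15.8 to 19.2 over autosomes. The X median was thus 56.0% of the autosomal one in wild type and 54.2% in the RNAi group. A level of 5 FPKM was reached by 38.6% of X protein-coding genes and by 46.4% of autosomal ones, although the autosomes themselves ran from 32.3% on chromosome V to 59.3% on chromosome III. Over all gene types, X genes made up 11.99% of the genes at that level. The X carried 5.70% of the summed FPKM of protein-coding genes in wild type and 5.77% in RNAi.

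The levels in rRNA-depleted RNA are the authors' normalized counts, which are not per length. With at least 10 normalized counts in the higher condition, the X median was 86.5 in condition A and 85.9 in condition B, against 154.0 and 165.3 for autosomal genes. Chromosome V, with medians of 84.0 and 93.3, was near the X, and the other 4 autosomes were above it. A level of 10 counts was reached by 78.4% of X protein-coding genes and 77.5% of autosomal ones, with 63.3% on chromosome V and 88.9% on chromosome III. The lower share of X genes seen at 5 FPKM in poly(A) RNA was thus not found here. Protein-coding genes of all levels had a median span, introns included, of 2594 bases on the X and 1994 on autosomes, and the part of gene length in these medians was not tested. The 5 X-linked vitellogenins, which encode yolk proteins made in the intestine, held 64.3% of the X protein-coding counts in condition A and 66.0% in condition B. With them the X had 13.2% of protein-coding counts in each condition. Without them it had 5.24% and 4.998%.

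**Figure D1:**
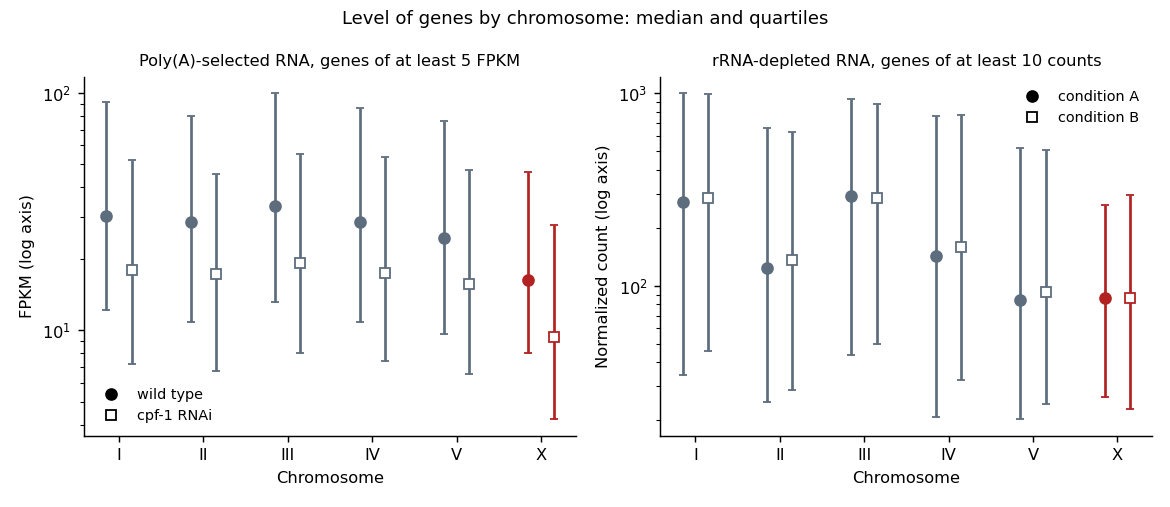
Median (points) and quartiles (bars) of gene levels by chromosome in each group, in FPKM for poly(A) RNA and normalized counts for rRNA-depleted RNA, on log axes. The X median was 16.3 FPKM in wild type and 9.41 in RNAi, below each of the 5 autosomes.

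The most abundant X transcripts in wild type poly(A) RNA were F23A7.8 at 7858 FPKM, spp-14, which encodes a saposin-like protein, at 6221, F23A7.4 at 5725, ilys-5, an invertebrate lysozyme gene, at 5321 and rpl-11.2, a gene for a protein of the large ribosomal subunit, at 5282. In RNAi the collagen genes col-181 and col-184 stood at 6225 and 5492 FPKM, and spp-5, another saposin-like gene, at 5394. In rRNA-depleted RNA the vitellogenins led, with vit-4 at 486300 normalized counts in condition A and 504400 in B, vit-3 at 467700 and 458500, and vit-5 at 369800 and 443000. The sequences of vit-3, vit-4 and vit-5 are close to identical, so the split of reads among them is uncertain. F23A7.8 and F23A7.4, neighbours on the X, changed most among these abundant genes in rRNA-depleted RNA. F23A7.8 went from 82460 to 7745 normalized counts (adjusted p = 2.22e-47, DESeq) and F23A7.4 from 64650 to 6164 (adjusted p = 4.19e-17, DESeq) in the authors' deposited table, while neither passed in poly(A) RNA (q = 0.210 and 0.702).

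In poly(A) RNA, X genes went down with the rest of the genome. The median log2 ratio of RNAi to wild type was -0.96 over the X genes above 0 in both groups, with quartiles of -1.55 and -0.31, and 82.7% of these genes had a ratio below 0. The autosomal median was -0.88, with a range of -0.94 to -0.78 over the 5 autosomes, and 80.8% of those genes were below 0. Weighting autosomal genes to the levels of the X genes left their median at -0.87. The X median was therefore lower than that of every autosome. Against all of them together the difference was 0.08, and the autosomal medians themselves ran from -0.94 to -0.78. At 20 FPKM or more the difference turned round, to 0.06 higher on the X. Genes are not replicates, and with 1 value per group in this table no test of the difference between chromosomes was made.

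Of the 967 X genes that the authors tested, 23 were higher and 97 were lower in RNAi at q under 0.05 in the authors' deposited table. That is 12.4% of X genes, against 16.8% of the 8513 genes tested over the whole genome, of which 3.12% were higher and 13.6% lower. On the autosomes 17.3% were called, with a range of 16.0% to 18.6%. At matched level the autosomal share was 14.8%, with a range of 13.3% to 16.0%. So fewer X genes were called than on any autosome, and part of that gap went with their lower level. At an unadjusted p under 0.05 there were 271 X genes. Most genes in the table were lower in RNAi, and the median tested gene had a log2 ratio of -0.90. Relative to that median, and with a standard error derived from each gene's p, 51 X genes were higher and 7 lower, or 6.43% of 902, where 6.15% of all genes passed, 5.64% higher and 0.509% lower. The excess of lower calls on the X, as elsewhere, thus turned into an excess of higher calls under this centring.

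**Figure D2:**
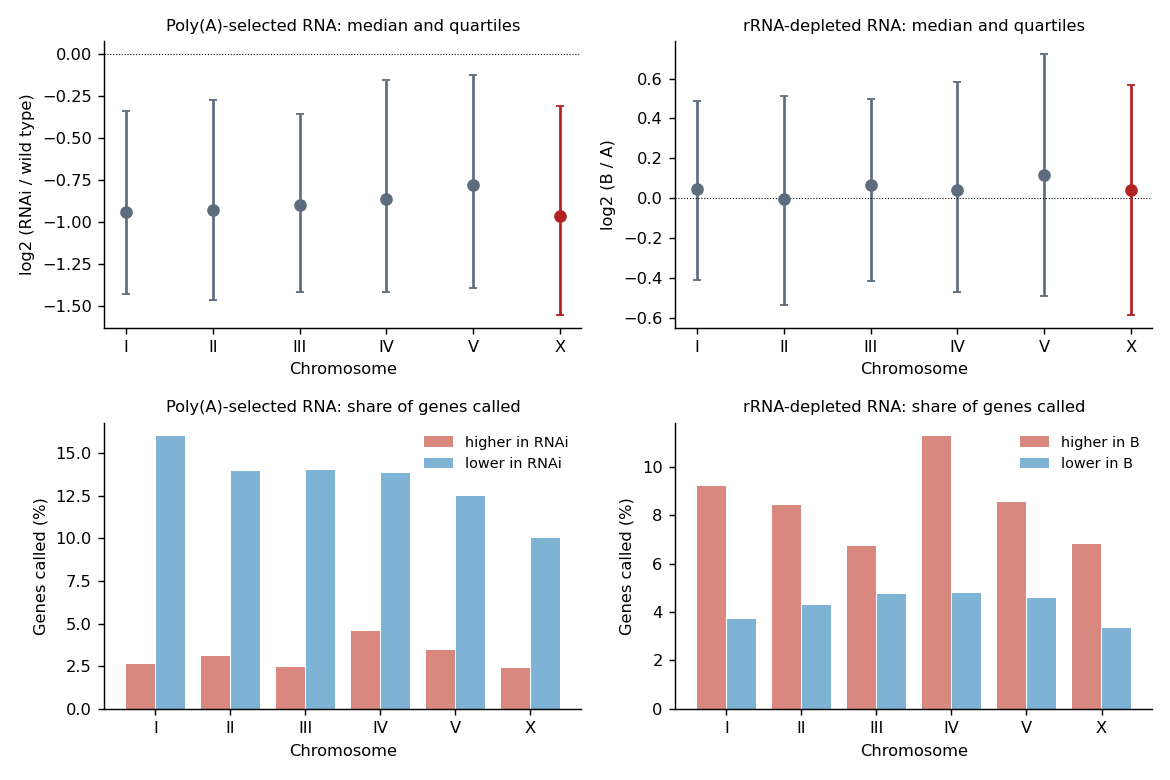
Upper panels give the median (points) and quartiles (bars) of the log2 ratio for each chromosome in poly(A) RNA (RNAi over wild type) and rRNA-depleted RNA (B over A), and lower panels the percent of genes called higher or lower, of those tested or with at least 10 counts. The X median of -0.96 in poly(A) RNA lay below those of the 5 autosomes, and in rRNA-depleted RNA the X median of 0.04 lay within their range.

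Of the 23 X genes that rose in poly(A) RNA, 4 were cuticle collagens and 2 were histones. The authors' deposited table lists col-175, a cuticle collagen, at 0.931 FPKM in wild type and 80.2 in RNAi, a log2 difference of 6.43 ± 1.18 (standard error derived from the p, q = 1.37e-05). For col-180 it was 14.1 against 139 FPKM (q = 0.00296 in the authors' deposited table), and for col-176 it was 3.20 against 40.0 (q = 0.005001). These 3 collagens rose over the same label, from low wild type levels. The authors' deposited table has gln-1, which encodes glutamine synthetase, rising from 1.06 to 13.6 FPKM, 3.69 ± 0.64 on the log2 scale (q = 4.13e-06). The mitochondrial manganese superoxide dismutase gene sod-3 rose from 0.796 to 16.40 FPKM (q = 0.00148 in the authors' deposited table), but its locus is shared with other genes. The linker histone H1 gene his-24 rose from 200.5 to 1518 FPKM, 2.92 ± 0.47 on the log2 scale (q = 2e-07 in the authors' deposited table). A second histone H1-like gene, hil-3, rose from 107 to 276 FPKM (q = 0.0423 in the authors' deposited table). These 2 linker histone genes of the X thus moved the same way. Other rises in the authors' deposited table were rpl-25.1, a large ribosomal subunit gene, from 767.6 to 4749 FPKM (q = 5.63e-06), spp-5, from 1252 to 5394 (q = 3.39e-04), and nspc-14, of a nematode-specific peptide family, from 18.4 to 165 (q = 1.37e-04). Less well characterized genes among the largest rises were D1005.4, F35B3.4, Y15E3A.5 and oac-14, an acyltransferase homologue, with log2 differences of 3.08 to 3.45. In rRNA-depleted RNA the authors' test called col-175, col-176, col-180, his-24, hil-3, F35B3.4 and oac-14 higher in B. The other rising genes listed above did not pass it. Among them gln-1 had 347 and 317 normalized counts in A and 227 and 217 in B, and limma-voom called it lower in B (adjusted p = 0.0192).

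Among the 97 X genes that fell, the largest fall was EGAP4.1, listed at 71.1 FPKM in wild type and 2.07 in RNAi, a log2 difference of -5.11 ± 1.02 (q = 9.82e-05 in the authors' deposited table). T25C12.3 followed at 12.4 and 0.597 FPKM, -4.37 ± 0.72 (q = 7.35e-07 in the authors' deposited table). For pept-1, which encodes an intestinal carrier of peptides, the values were 16.52 and 1.60 FPKM (q = 0.00210 in the authors' deposited table). The gene for S-adenosylmethionine synthetase, sams-1, fell from 241 to 31.1 FPKM, -2.96 ± 0.58 on the log2 scale, in the authors' deposited table (q = 8.64e-05). The cytidine deaminase gene cdd-1 fell from 10.1 to 1.07 FPKM (q = 0.00724 in the authors' deposited table). For kin-2, the regulatory subunit of protein kinase A, the authors' deposited table gives 37.8 and 5.16 FPKM (q = 1.18e-04), over a locus shared with other genes. The tyramine beta-hydroxylase gene tbh-1, whose product makes octopamine, fell from 74.8 to 13.2 FPKM, -2.51 ± 0.52 on the log2 scale (q = 1.87e-04 in the authors' deposited table). The remaining genes among the 10 largest falls, R03A10.1, R09F10.5, Y72A10A.1 and F53A9.6, had log2 differences of -2.82 to -2.75. Relative to the median gene, 21 of the 39 X genes named here that had passed still passed in the same direction and 18 did not.

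In rRNA-depleted RNA the X median was near 0, as on the autosomes. The median log2 ratio of condition B to condition A was 0.04 over X genes above 0 in both, with quartiles of -0.58 and 0.57. These genes had at least 10 normalized counts in the higher condition. The autosomal median was 0.06, with a range of -0.00 to 0.12. The authors' deposited table has an adjusted p under 0.05 (DESeq) for 157 X genes that were higher and 77 that were lower in B, which is 5.70% of 4106 genes, against 8.31% of all genes, 5.54% higher and 2.77% lower. Of the 2300 X genes with at least 10 counts 10.2% were called, against 12.8% of all genes at that level, 8.54% higher and 4.27% lower. The autosomal share at that level was 13.3%, or 11.7% when matched on level, with the autosomes between 8.75% and 14.3%. The X share lay within that matched range. Limma-voom on the counts recovered per library called more genes, 391 higher and 332 lower on the X, where it called 35.8% of all genes, 19.9% higher and 15.9% lower. With the median gene as reference the balance on the X turned, to 332 higher and 380 lower.

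Condition A was sequenced less deeply, with 8287830 and 2852379 recovered counts in its libraries against 35793329 and 15120881 in B, and between 1.58% and 17.6% of the 2534 X genes compared across libraries were at 0 in a given library. Even so, only 22 of the 2300 X genes, or 0.957%, were at 0 in condition A, compared with 3.37% of autosomal genes and 1.92% to 4.69% on single autosomes. Genes at 0 in A and called higher in B numbered 4 of the 2300 on the X and 244 of 14260 on autosomes, or 21 to 75 on each. Genes at 0 in A reach 10 counts only through B. Their direction is thus set by the filter, and these numbers are a description. For the autosomal sperm genes the median log2 ratio of B to A was 5.31, with 59 of 91 called higher and none called lower. Of the 50 sperm genes tested in poly(A) RNA, 26 were higher in RNAi and none was lower, and the median was 3.26. Oocyte and early embryo genes had medians of 0.03 in rRNA-depleted RNA and -1.005 in poly(A) RNA. Without the sperm, collagen and vitellogenin genes the X median minus the autosomal one was -0.01 in rRNA-depleted RNA and -0.08 in poly(A) RNA, as with them, and the first of these is within the range given by leaving out single libraries, -0.02 to 0.02. In such bulk samples, fewer cells of a type and less RNA per cell cannot be told apart.

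Among the X genes that rose in rRNA-depleted RNA, the collagen gene col-175 had 0 counts in both libraries of A and 784 and 647 normalized counts in B, which is at least 236-fold higher against a floor of 3 counts over both A libraries (adjusted p = 2.48e-45, DESeq, in the authors' deposited table). For dhs-26, a short-chain dehydrogenase gene, the libraries had 6.77 and 8.03 normalized counts in A and 243 and 259 in B. The libraries of the 2 conditions did not overlap, and B was 33.95-fold higher (adjusted p = 1.87e-16, DESeq, in the authors' deposited table). The P-glycoprotein transporter gene pgp-8 had 14.9 and 20.1 in A and 439 and 493 in B. It was 26.7-fold higher in B, again without overlap (adjusted p = 3.23e-26, DESeq, in the authors' deposited table). Values of col-180 were 10.8 and 32.1 in A and 468 and 581 in B (adjusted p = 3.35e-23, DESeq, in the authors' deposited table). The astacin protease gene nas-38 had 13.5 and 8.03 in A and 97.7 and 84.4 in B (adjusted p = 0.00234, DESeq, in the authors' deposited table). T01C8.10, a non-coding gene with 1.35 and 0 in A and 22.03 and 41.5 in B, also passed (adjusted p = 0.0411, DESeq, in the authors' deposited table). Collagen dpy-8 had 12.2 and 0 in A and 97.7 and 72.0 in B (adjusted p = 0.00170, DESeq, in the authors' deposited table). In T10E10.9 the libraries of a condition differed widely, with 24.4 and 4.01 for A and 1627 and 690 for B, and this gene passed the authors' test (adjusted p = 0.0139, DESeq, in the authors' deposited table) but not limma-voom (adjusted p = 0.0507). Genes at 0 in A and called in B also included dao-4, with 53.96 and 66.2 in B, and C45B2.3 and C44H4.10, with 24.7 to 35.0.

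The largest falls among protein-coding X genes were F23A7.8, F23A7.4, ttr-42, lgc-41 and EGAP4.1. The transthyretin-related gene ttr-42 had 546 and 698 normalized counts in A and 59.5 and 65.5 in B. Its libraries did not overlap and it was 9.95-fold lower in B (adjusted p = 9.91e-10, DESeq, in the authors' deposited table). The ligand-gated ion channel gene lgc-41 had 40.6 and 36.1 in A against 4.68 and 3.25 in B (adjusted p = 0.0437, DESeq, in the authors' deposited table). EGAP4.1 had 110 and 60.2 in A against 6.61 and 11.03 in B (adjusted p = 0.0107, DESeq, in the authors' deposited table). The other large falls were F54B11.14, a non-coding gene with 21.7 and 36.1 in A against 1.10 and 0 in B (adjusted p = 0.0171, DESeq, in the authors' deposited table), and tRNA genes with the non-coding genes that overlap them. Thus C39D10.t2 and the overlapping C39D10.17 have the same counts, 79.9 and 100 in A against 0.275 and 0 in B, so they are 1 measurement (adjusted p = 6.5e-13, DESeq, in the authors' deposited table). The pair F15A8.t2 and F15A8.15 stood at 40.1 to 43.3 in A and at 0.551 and 0 in B. In all, 6 of 32 X tRNA genes with at least 10 counts were lower in B and none was higher, and among 75 autosomal tRNA genes 2 were lower and 1 was higher. Of all genes at that level 4.27% were lower and 8.54% higher. The tRNA genes named here, the genes that overlap them, lgc-41, EGAP4.1 and F54B11.14 reached 10 counts only through condition A, in which they were high. All these falls were chosen by the same values, so these numbers and the lack of overlap are a description. tRNA genes occur in near-identical copies and reads could be split among them.

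**Figure D3:**
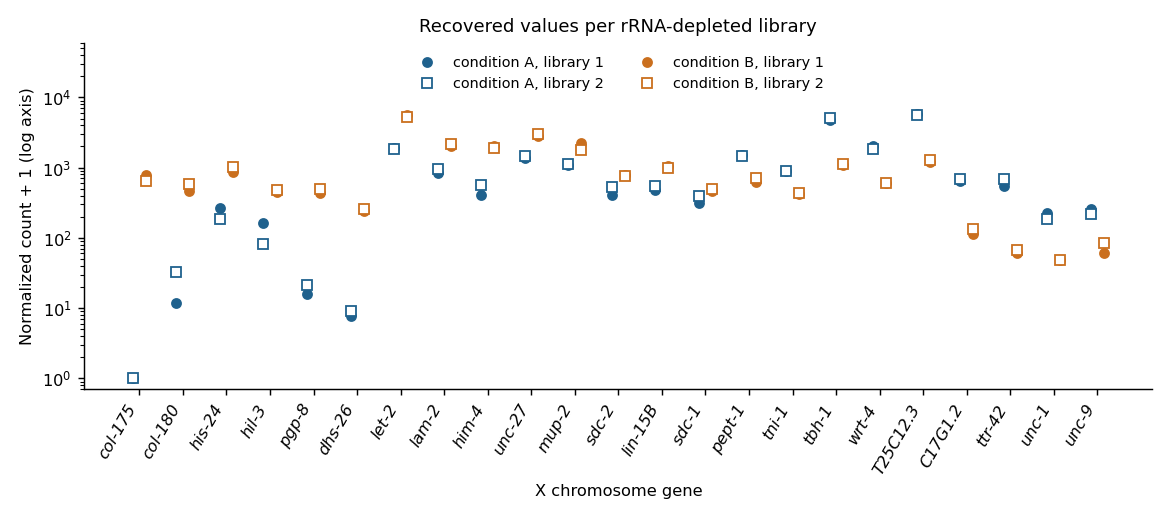
Recovered normalized counts, plus 1 on a log axis, of 23 selected X genes in each rRNA-depleted library of conditions A and B. For col-175, dhs-26, pgp-8, let-2 and him-4 both libraries of B lie above both of A, and for ttr-42 and tbh-1 both lie below.

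The X differed from the autosomes when genes were grouped by level. In rRNA-depleted RNA, X genes with 10 to 30 normalized counts in the higher condition had a median log2 ratio of B to A of -0.23, and this became -0.17 for 30 to 100 counts, 0.03 for 100 to 300, 0.31 for 300 to 1000 and 0.45 for at least 1000 counts. Autosomal genes in the same bins had medians of 0.10, 0.12, 0.07, -0.02 and 0.08. The median of X genes thus increased over the bins, and the autosomal medians showed no such order. Genes at 0 in A or B were left out, 22 and 9 on the X and 480 and 32 on autosomes. With them kept, single library pairings of protein-coding autosomal genes gave medians of 0.15 to 0.39 at 10 to 30 counts. The next 2 bins gave 0.13 to 0.19 and 0.04 to 0.08. X genes in these 3 bins had -0.44 to -0.29, -0.23 to -0.18 and 0.00 to 0.03. In poly(A) RNA the X medians were -1.12 at 5 to 10 FPKM, -1.12 at 10 to 20, -0.98 at 20 to 50, -0.85 at 50 to 200 and -0.36 at 200 FPKM or more. Autosomal medians there were -0.77, -0.91, -0.92, -0.99 and -0.74. In both tables, then, low X genes lay below the autosomes and abundant X genes lay above them. The part of sequencing depth, which differed between A and B, was not tested.

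**Figure D4:**
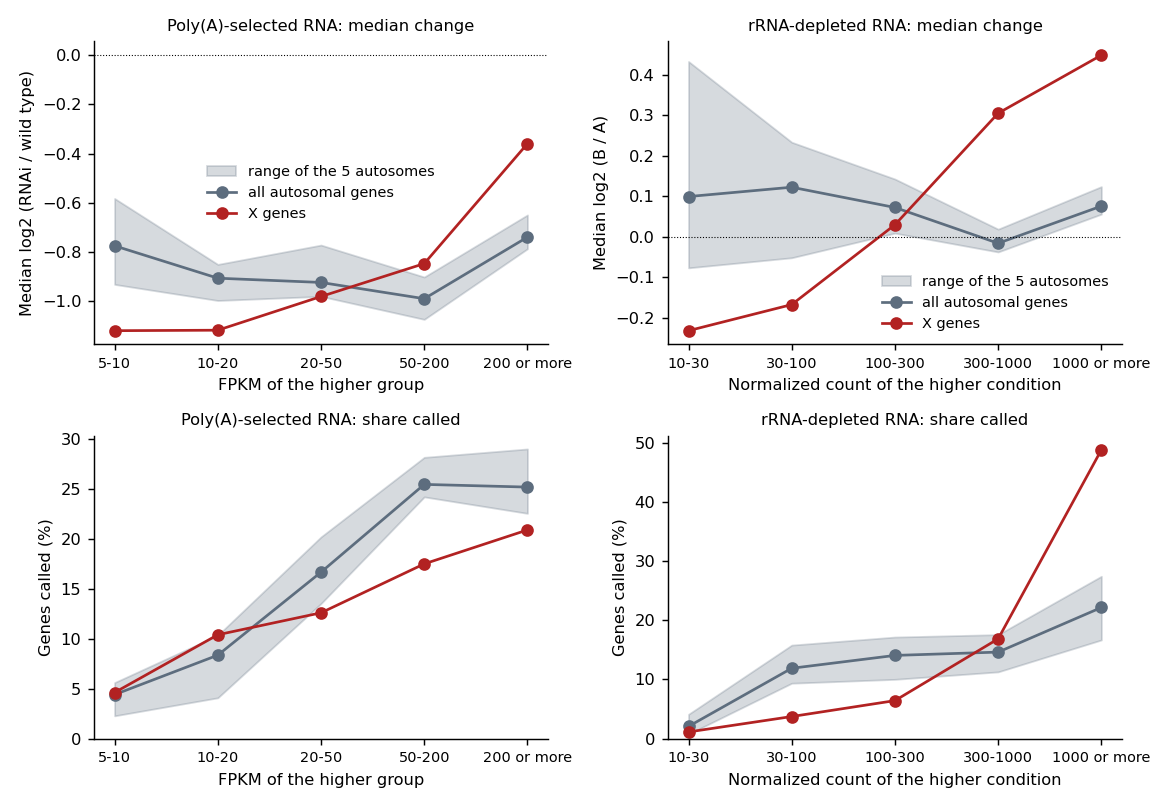
Median log2 ratio (upper panels) and percent of genes called (lower panels) of X and autosomal genes by level in the higher group, for poly(A) RNA (RNAi over wild type, bins of FPKM) and rRNA-depleted RNA (B over A, bins of normalized counts), with shading for the range of the 5 autosomes. X medians ran from -1.12 to -0.36 and from -0.23 to 0.45, and 48.8% of X genes with at least 1000 counts were called.

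The shares of called genes also differed by level, and not alike in the 2 tables. Of the 203 X genes with at least 1000 normalized counts, 69 were higher and 30 lower in B by the authors' test, or 48.8%, where 23.7% of all 3466 genes at that level were called, 12.7% higher and 11% lower. Autosomes ranged from 16.7% to 27.4%. Since the level is that of the higher condition, some genes reached it only through the condition in which they were high, such as T10E10.9, cht-1 and asns-2, so these shares are a description. Grouped by the geometric mean of the conditions, 31.3% of 147 protein-coding X genes were higher and 15.65% lower, against 10.45% and 6.09% on the autosomes. In the bin of 30 to 100 counts 3.74% of X genes were called against 11.9% of autosomal genes, whose single chromosomes ran from 9.37% to 15.8%. The called shares of X genes in poly(A) RNA were 4.62% at 5 to 10 FPKM and 10.4% at 10 to 20, against 4.42% and 8.37% on autosomes, and 20.9% at 200 FPKM or more, against 25.2%. There the X share was thus above the autosomal one at low level and below it at high level, and the difference between the tables was not tested.

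Among protein-coding genes alone, 188 X genes with at least 1000 counts had a median log2 ratio of 0.45, while the medians of the 5 autosomes lay between 0.07 and 0.15. Every pairing of a library of B with a library of A gave X medians of 0.42 to 0.49 and autosomal medians of 0.09 to 0.10. Between the 2 libraries of a condition the X median was 0.03 in A and 0.01 in B. The pairings share libraries, the libraries of a condition may be technical repeats, and 2 against 2 libraries allow no exact permutation p below 0.333. At 10 to 30 counts the condition means gave medians of -0.32 on the X and -0.02 on the autosomes, and the pairings gave -0.44 to -0.29 and 0.15 to 0.39. For 107 protein-coding X genes of 200 FPKM or more in poly(A) RNA the median was -0.36, and the autosomes lay between -0.79 and -0.67.

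Gene span also went with the ratio, and the X was higher at each span. Abundant protein-coding X genes under 1000 bases had a median log2 ratio of 0.18 and those of 8000 bases or more 0.94, where the autosomal medians were -0.10 and 0.43. Between these, the X medians were 0.33, 0.49 and 0.43 in the successive classes bounded by 1000, 2000, 4000 and 8000 bases, and the autosomal ones were -0.14, 0.02 and 0.26. Autosomal genes weighted to the level and span of the abundant X genes had a median of 0.12. Taken by the geometric mean of the groups, in place of the higher group, the X median at 1000 counts or more was 0.42 in 147 genes against 0.11 on autosomes. Over the 2534 X genes whose counts could be recovered in every library, which leave out the vitellogenins, F23A7.8 and F23A7.4, the X took 7.59% and 7.40% of the counts in condition A, and 8.20% and 8.13% in condition B. Over all protein-coding genes the X share did not rise, at 13.24% in A and 13.16% in B, or 5.24% and 4.998% without vitellogenins. For the recovered genes the libraries of the conditions did not overlap, and the exact two-sided permutation p was 0.333, the smallest that 2 against 2 allows.

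**Figure D5:**
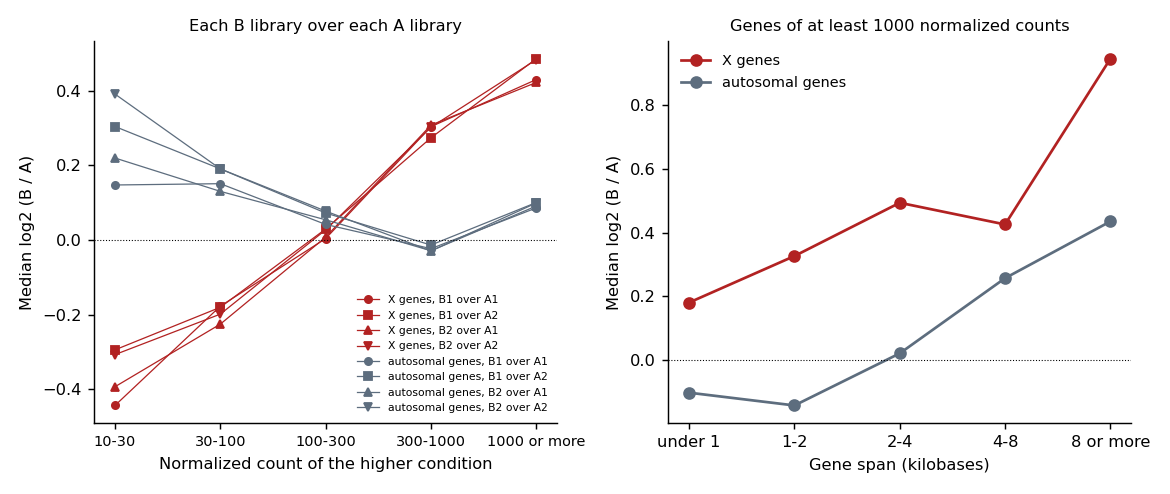
Median log2 ratio of B to A for X and autosomal protein-coding genes, by level for each pairing of libraries and by gene span for genes with at least 1000 normalized counts. X genes of at least 1000 counts had medians of 0.42 to 0.49 over the 4 pairings, and autosomal genes 0.09 to 0.10.

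The abundant X genes that were higher in B are described here by examples chosen after their values were seen. Several encode proteins of the cytoskeleton and cell junctions. The non-muscle myosin gene nmy-1 had 2201 and 2108 normalized counts in A and 6735 and 6306 in B, a 3.03-fold difference without overlap (adjusted p = 2.42e-13, DESeq, in the authors' deposited table). The alpha spectrin gene spc-1 had 2237 and 2268 in A against 4441 and 4479 in B, and the filamin gene fln-2 had 1183 and 1104 against 2651 and 2569. The apical junction genes dlg-1 and ajm-1 had 606 to 731 in A and 1074 to 1645 in B. For apl-1, related to the amyloid precursor protein, the values were 1620 and 1509 in A and 3265 and 3831 in B. In each of these genes both libraries of B exceeded both of A, a description, since they were chosen by these values. Enzyme genes were in the same group, with pcca-1 and pccb-1, the subunits of propionyl-CoA carboxylase, with 1869 to 2320 in A and 3106 to 3575 in B. The chitinase gene cht-1 went from 194 and 185 to 1009 and 1016, and the asparagine synthetase gene asns-2 from 196 and 213 to 995 and 1038. Lower in B were lgl-1, homologue of the fly polarity gene lethal giant larvae, at 4433 and 3713 against 1940 and 1724, and aakg-3, a gamma subunit of AMP-activated kinase, at 3342 and 3071 against 1128 and 1116.

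Among genes that control the X itself, 1 of the 2 dosage compensation genes on the X passed. The X holds sdc-1 and sdc-2 of the dosage compensation complex, and sdc-2 is the factor that brings the complex to the X in hermaphrodites. Neither was tested in poly(A) RNA, at 1.39 and 0.521 FPKM for sdc-2. In rRNA-depleted RNA sdc-2 had 405 and 534 normalized counts in A and 781 and 761 in B, and it rose without overlap, 0.72 on the log2 scale (adjusted p = 0.0181, DESeq, in the authors' deposited table). sdc-1 had 311 and 397 against 469 and 502 and did not pass (adjusted p = 0.323, DESeq, in the authors' deposited table). Of the 8 autosomal members of the list, dpy-21 and sdc-3 were higher in B and 6 did not pass the authors' test, and none of the 6 tested in poly(A) RNA passed, with none at an unadjusted p under 0.05. By limma-voom both X members and 6 of the 8 autosomal members were higher in B, and none was lower, where it called 19.9% of all genes higher and 15.9% lower. By the authors' test 8.54% of all genes with at least 10 counts were higher in B. The part of gene level and span in the calls of this list was not tested.

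The X-linked genes that signal X dose did not pass the authors' test in rRNA-depleted RNA, and 2 had an unadjusted p under 0.05. These are sex-1, ceh-39 and fox-1, which lower the activity of xol-1, the switch gene for male fate, and xol-1 itself. sex-1 had 194 and 165 normalized counts in A and 333 and 346 in B (adjusted p = 0.139, DESeq, in the authors' deposited table). ceh-39 had 141 and 157 against 230 and 277 (adjusted p = 0.247, DESeq, in the authors' deposited table). Both had no overlap between conditions, and both passed limma-voom with adjusted p of 0.00891 and 0.0334. fox-1 fell in poly(A) RNA from 15.3 to 4.20 FPKM (q = 0.0396 in the authors' deposited table), over a locus shared with other genes, but not relative to the median gene. Its libraries overlapped in rRNA-depleted RNA. xol-1 was low in all groups, at 0.934 and 0.860 FPKM.

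Of the 2 X-linked genes in a list for germline X repression and chromatin, lin-15B rose from 475 and 550 normalized counts in A to 1046 and 993 in B (adjusted p = 6.17e-04, DESeq, in the authors' deposited table). It belongs to the synMuv B class, which keeps germline genes off in body cells. hpl-1, a heterochromatin protein 1 homologue, had 56.9 and 32.1 against 46.8 and 46.7, with overlap. Among 18 autosomal genes of this list, 1 was higher in B by the authors' test, where 8.54% of all genes with at least 10 counts were. By limma-voom 4 were higher and 4 lower, where it called 19.9% of all genes higher and 15.9% lower. In poly(A) RNA 4 of 17 tested were lower, against 13.6% of all tested genes.

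Of the 5 X vitellogenins 1 passed in each table. vit-1 fell in poly(A) RNA from 1183 to 328 FPKM (q = 0.00747 in the authors' deposited table), but not once the median gene was taken as the reference. vit-2 rose in rRNA-depleted RNA from 140800 to 208300 (adjusted p = 0.0487, DESeq, in the authors' deposited table), and vit-3, vit-4 and vit-5 passed in neither table. Cuticle collagens were called on the X and on the autosomes in these numbers: 4 of 16 X collagens tested in poly(A) RNA were higher and 2 lower, with a median of 0.15, against 43 of 90 higher and 5 lower on autosomes, with a median of 1.86. In rRNA-depleted RNA 9 of 30 X collagens were higher in B and none lower by the authors' test, limma-voom calling 14 higher and 2 lower of 21, with a median of 0.91 against 1.73 for the 148 autosomal ones, of which 68 were higher. Of all tested genes, 3.12% were higher and 13.6% lower in poly(A) RNA, and 5.54% and 2.77% in rRNA-depleted RNA. Limma-voom called 19.9% of all genes higher and 15.9% lower. The difference between X and autosomal collagens was not tested. The abundant adult collagens col-19, col-181 and col-184 were among the 9, and col-184 had 3385 and 3163 in A against 5738 and 4954 in B (adjusted p = 0.0122, DESeq, in the authors' deposited table).

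Of 4 basement membrane genes on the X, 3 were higher in B in rRNA-depleted RNA and 1 did not pass, and of 10 on autosomes 6 were higher, where 8.54% of all genes with at least 10 counts were. let-2, a type IV collagen chain, had 1925 and 1835 normalized counts in A and 5542 and 5195 in B, 2.86-fold higher without overlap (adjusted p = 1.23e-11, DESeq, in the authors' deposited table). lam-2, the laminin gamma chain, had 835 and 947 against 2034 and 2179 (adjusted p = 3.01e-07, DESeq, in the authors' deposited table). him-4, which encodes hemicentin, an extracellular matrix protein, had 402 and 570 against 2006 and 1883, 4.002-fold higher (adjusted p = 2.18e-18, DESeq, in the authors' deposited table). The 2 members tested in poly(A) RNA did not pass.

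Muscle genes of the X moved in both directions. Of 12, 3 were higher and 1 was lower in B, where 8.54% and 4.27% of all genes with at least 10 counts were. Of 28 on autosomes, 10 were higher and 1 was lower. In poly(A) RNA 1 of 11 on the X was higher and 2 were lower, against 3.12% and 13.6% of all tested genes. The X holds a pair of genes for troponin I, the inhibitory subunit of the thin filament switch, and they moved oppositely. unc-27 rose from 586 to 1827 FPKM (q = 0.00683 in the authors' deposited table) and from 1359 and 1465 to 2801 and 3016 normalized counts. tni-1 fell from 102.5 to 29.1 FPKM (q = 0.0129 in the authors' deposited table) and from 908 and 899 to 425 and 429 normalized counts. Both passed in each table and their libraries did not overlap. Relative to the median gene in poly(A) RNA, unc-27 still passed, but the fall of tni-1 did not (adjusted p = 0.452 from the derived standard error). Troponin T gene mup-2 had 1095 and 1112 in A against 2203 and 1803 in B (adjusted p = 0.00563, DESeq, in the authors' deposited table). The pharyngeal myosin gene myo-2 was lower in poly(A) RNA, 15.6 against 2.86 FPKM (q = 0.00262 in the authors' deposited table), over a locus shared with other genes, and did not pass in rRNA-depleted RNA.

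Of 16 X neuron genes in rRNA-depleted RNA, 2 were lower in B and none higher, by the authors' test and by limma-voom. They were unc-9, an innexin of gap junctions, at 254 and 221 against 60.6 and 82.4 normalized counts (adjusted p = 4.05e-04, DESeq, in the authors' deposited table), and unc-1, a stomatin-like regulator of gap junctions, at 227 and 185 against 47.4 in each library of B (adjusted p = 6.53e-05, DESeq, in the authors' deposited table). Of 2 tested in poly(A) RNA, 1 was lower, mec-7, the beta-tubulin of touch receptor neurons (q = 0.0394 in the authors' deposited table). None of 37 X neuropeptide genes passed the authors' test in rRNA-depleted RNA, none had an unadjusted p under 0.05, and limma-voom called 6 of the 25 it could use, all lower in B. In poly(A) RNA 2 of 27 tested, nlp-3 and H05L03.3, were lower, and neither passed relative to the median gene. The medians of X neuropeptide genes were -0.85 in poly(A) RNA and -0.40 in rRNA-depleted RNA, where the autosomal ones were -0.74 and -0.05.

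In the other lists few X genes passed, where 8.54% of all genes with at least 10 counts were higher and 4.27% lower in B. In poly(A) RNA 3.12% of all tested genes were higher in RNAi. Of 12 intestinal genes, the aquaporin gene aqp-8 was higher in B, at 170 and 124 normalized counts against 510 and 520, and pept-1 was lower, at 1488 and 1449 against 626 and 716. Of 9 genes of hypodermis and molting, the astacin protease gene nas-37 was higher, at 116 and 112 against 311 and 274, and wrt-4, a hedgehog-related gene, was lower, at 1999 and 1835 against 600.2 and 606, while 8 of 22 autosomal ones were higher. Of 5 X histone genes his-24 and hil-3 were higher in both tables, and among 75 autosomal histone genes 16 were higher in B. Of 2 X-linked ribosomal protein genes rpl-25.1 was higher in poly(A) RNA, as were 7 of 73 autosomal ones tested, and of 2 stress genes sod-3 was higher. None of the 15 genes for 3′ end processing lay on the X. The heterochronic genes lin-14, hbl-1 and daf-12, which time larval development, were not tested in poly(A) RNA. None passed the authors' test in rRNA-depleted RNA. Only daf-12 had no overlap, at 241 and 185 against 342 and 392 (adjusted p = 0.336, DESeq, in the authors' deposited table), and it passed limma-voom with an adjusted p of 0.0290.

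The tables come from separate libraries, and 33 X genes were called in both, or 3.51% of the 941 X genes tested in poly(A) RNA and listed in the other table, against 4.04% of 7505 autosomal genes. Of these, 11 were higher in RNAi and higher in B, 19 were lower in both, and 3 were lower in RNAi and higher in B, which are 1.17%, 2.02% and 0.319%, where the autosomes had 2.00%, 1.60% and 0.386%. None on the X and 4 on the autosomes went the other way. The largest of the first kind, by the smaller of the log2 ratios, included col-175, col-176, col-180 and F35B3.4. F35B3.4 had 25.7 and 20.1 normalized counts in A against 225 and 179 in B. Among the 19 were EGAP4.1, T25C12.3, ttr-42, tbh-1 and C17G1.2. tbh-1 had 4836 and 5114 in A against 1105 and 1139 in B (adjusted p = 1.05e-18, DESeq, in the authors' deposited table), and T25C12.3 had 5708 and 5660 against 1197 and 1275. The 3 opposite genes were epn-1, which encodes the endocytic adaptor epsin, F52G3.1 and T14G8.3. None of these 3 passed in poly(A) RNA relative to the median gene, with adjusted p of 0.598, 0.637 and 0.670 from the derived standard errors, and T14G8.3 did not pass limma-voom without A replicate 1 (adjusted p = 0.0723). epn-1 fell from 56.4 to 18.9 FPKM in poly(A) RNA (q = 0.0152 in the authors' deposited table) and rose from 366 and 422 to 737 and 788 normalized counts.

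Called genes were spread along the X. In bins of 2 Mb the poly(A) medians ran from -1.17 at 4 to 6 Mb to -0.86 at 2 to 4 Mb, and 7.50% to 17.2% of the genes with at least 5 FPKM were called. In rRNA-depleted RNA the medians ran from -0.05 at 14 to 16 Mb to 0.21 at 16 to 18 Mb, and 7.51% to 12.7% of the genes with at least 10 counts were called. Some called genes were neighbours. At chrX:10854255-10876236 the P-glycoprotein genes pgp-5, pgp-8, pgp-7 and pgp-6 were all higher in B: pgp-5 had 125.9 and 92.3 normalized counts in A against 671 and 646 in B, pgp-7 had 78.5 and 16.06 against 360 and 337, and pgp-6 had 130 and 48.2 against 562 and 513. At chrX:3112073-3127063 gpd-3, gpd-2, mai-1 and spc-1 were higher. gpd-2 and gpd-3 encode near-identical glyceraldehyde-3-phosphate dehydrogenases, so their split is uncertain, with 3507 and 2983 against 7449 and 6944 for gpd-2. mai-1 is listed over the same locus as gpd-2 and had nearly the same counts, 3596 and 3051 against 7533 and 7097. In this run gpd-3, gpd-2 and mai-1 are therefore not separate measurements, while spc-1 has a locus of its own. At chrX:11879042-11883975 the genes Y62H9A.3, Y62H9A.4, Y62H9A.5 and Y62H9A.6 were all lower in B. Y62H9A.5 had 7155 and 6973 in A against 1781 and 2437 in B.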

How the data were processed

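Poly(A) RNA and rRNA-depleted RNA of C. elegans were measured in 4 groups of 2 libraries. FPKM values, 1 per group, with p-values and q-values were deposited by the authors in a table of Cuffdiff layout per the file headers. Normalized counts (counts over size factors, 1 mean per condition that no label ties to a group, entered as a score) with p-values and adjusted p-values were deposited by the authors. The submitters' processing notes name ce10, Bowtie and DESeq with neither roles nor versions, and per the file headers the layout of the second table is that of DESeq. How reads were counted, and with which annotation, was not given in the sources used here. No depth is known for the poly(A) libraries.

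Genes were placed by their poly(A) locus. Biotypes and gene spans came from RefSeq (WBcel235), which matched 92.7% of X entries, and RefSeq positions were not used to place genes. Spans can differ from the ce10 loci, as for C30E1.9, with a locus of chrX:16929841-16931546 and a span of 14770 bases. 301 genes of the rRNA-depleted table had no locus, and 2 X entries with a failed FPKM estimate were left out. A level of 5 FPKM or 10 normalized counts in the higher group was required for medians, and adjusted p-values are over all genes of a table. The standard error of a poly(A) log2 ratio was the absolute ratio over the normal deviate of its p. Matching weighted autosomal genes to the X by level in steps of 1 on the log2 scale.

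Whole counts per library were recovered from the condition means, which are sums of whole counts over size factors; this solved 25479 of the 25640 genes for A, 25403 for B, and every gene up to 1000 counts. Size factors were 0.739, 0.249, 3.63 and 1.54. Library numbers are arbitrary. These counts entered limma-voom (limma 3.58.1, R 4.3.3) as an alternative. On simulated data it recovered 99 of 99 genes changed by 3 on the log2 scale and 12 of 99 changed by 1, and called 5 of 15035 unchanged genes. The simulation gave every gene the same dispersion, not estimated from these libraries, so these rates need not hold for the calls reported here. Other calculations used Python 3.11.15 with numpy 2.4.6, pandas 2.3.3 and scipy 1.17.1.

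Genes were named as the 10 largest rises and falls per table among called genes, the 5 highest per group, up to 5 called in both tables per direction, and list members, with others marked as chosen after their values were seen. Members and lists were chosen with earlier results of these data known. Alternatives included other thresholds, centring on the median gene, merged loci once, and leaving out each library.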

Additional observations from a re-analysis of the deposited data

How the results depend on the processing

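No paired analysis was possible because the columns of both tables carry no replicate numbers. The lower X level held its direction under each filter tried, at 32.4% to 56.2% of the autosomal median over both tables. In poly(A) RNA the 120 X calls became 39 at q under 0.01 and 39 when adjusted over all entries, and 58 relative to the median gene. The X minus autosome difference of the median, -0.08, became 0.062 at 20 FPKM or more. In rRNA-depleted RNA the 234 X calls (157 higher, 77 lower) became 723 by limma-voom (391 and 332), where 35.8% of all genes were called, and 712 with limma-voom relative to the median gene (332 and 380), which turns the balance. Leaving out each library gave 374 to 943 calls, with 374 without A replicate 1 (163 higher, 211 lower), 610 without A replicate 2 (305 each), 794 without B replicate 1 (466 and 328) and 943 without B replicate 2 (514 and 429). In these fits a lone library is assumed to vary like the other condition. The median difference of -0.01 became 0.082 at 50 counts or more and -0.063 with no minimum, and was -0.02 to 0.02 without single libraries, so its sign is not settled. The cause of these shifts was not tested. The following alternatives were chosen after seeing the data. The abundant X difference of 0.35 in rRNA-depleted RNA was 0.31 by the geometric mean and 0.39 and 0.38 for the pairings of B with library 2 of A. In poly(A) RNA the difference of 0.38 was 0.33 by the geometric mean. The 99 abundant X calls became 149 by limma-voom and 107 to 167 without single libraries, with 166 without B replicate 2. Without A replicate 1, 42 of 47 named X genes passed limma-voom, and sdc-2, T14G8.3, C45B2.3, C44H4.10 and T01C8.10 did not. For single genes, 273 of the values kept their direction and call, 40 lost the call, and none changed direction. Depth limits condition A most, where 9.95% and 17.6% of X genes had 0 counts in a library.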

Other observations

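Some X genes had many counts in rRNA-depleted RNA and almost no FPKM in poly(A) RNA. They were noticed in the values and not chosen by a rule. H03A11.2 had 9402 normalized counts in condition A and 25340 in B (adjusted p = 2.78e-09, DESeq, in the authors' deposited table), but 1.10 and 0.467 FPKM. C24A3.1 had 2534 and 2585 normalized counts in A and 569 and 502 in B, and stood at 0.00774 and 0 FPKM. C05E7.4 had 2403 and 2485 in A and 531 and 367 in B, and stood at 0.0318 and 0.0386 FPKM. The hedgehog-related gene wrt-4, at 1917 and 603 normalized counts, had 0.202 and 0.762 FPKM. In the last 3 genes both libraries of B lay below both of A.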
